A study of Mus musculus with 8 samples.

Results

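The BCL2 family of survival and death genes was followed in induced regulatory T cells (iTreg) that did or did not carry the surface receptor neuropilin-1 (Nrp-1). The 10 members were chosen by gene symbol, and all were present among the 23361 genes of the deposited expression table: the survival genes Bcl2, Bcl2l1 and Mcl1, the effector genes Bax and Bak1, and the BH3-only genes Bcl2l11, Bid, Bad, Bbc3 and Pmaip1. In Nrp-1+ iTreg, Pmaip1 was 47.0% and Bcl2l1 23.3% higher than in Nrp-1- iTreg, whereas Bid was 14.5%, Mcl1 12.3%, Bbc3 12.0% and Bcl2 8.39% lower. Bcl2l11, Bax, Bak1 and Bad did not pass the test.

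Both groups came from mice labelled WT that carried a Foxp3-RFP reporter, a red fluorescent protein that marks cells expressing Foxp3, and the methods give male animals aged 7 to 8 weeks. Naive CD4+ cells (CD44low CD62Lhigh) were cultured with anti-CD3/CD28 beads at 1 bead per 5 cells, TGF-β at 2 ng/ml and IL-2, given as 50 U/ml in the labels and 10 ng/ml in the methods, and viable CD4+ Foxp3-RFP+ cells were then divided by surface Nrp-1. The labels give 3 days of culture and, in another field, day 5, and the methods place the sort on day 3. RNA was sequenced from iTreg of each subset, Nrp-1+ and Nrp-1-, in 4 libraries apiece, labelled as biological replicates. No source used here says whether they came from separate animals or cultures, so p-values measure the spread between these libraries. Sorting on viable cells means that cells that had already died in culture were outside the measurement in both groups.

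BCL2 family proteins decide whether the outer mitochondrial membrane stays intact. BAX and BAK, the effectors, open pores through which cytochrome c escapes and activates caspases, and BCL2, BCL-XL (from Bcl2l1) and MCL1 hold them in check. BH3-only proteins such as BIM (from Bcl2l11), PUMA (from Bbc3) and NOXA (from Pmaip1) report stress or loss of growth factors by inserting their BH3 helix into a groove of the survival proteins, and much of this control acts on the proteins, which RNA sequencing does not measure. In T cells, IL-2 and T cell receptor signals keep survival proteins high, and MCL1 and BIM are known for their opposing roles in how long regulatory T cells live.

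The BH3 stretch is the feature by which the members recognise one another, and its coding sequence is shown for the 9 members for which it was read from the GENCODE M21 annotation (build GRCm38). Each line holds 36 bases, 5′ to 3′ on the coding strand, and the capitals mark the 18 bases that code for the 6 residues of the BH3 core. Each stretch lay within 1 coding exon: exon 1 for Bcl2 and Mcl1, exon 2 for Bcl2l1, exon 3 for Bcl2l11, Bax, Bad and Bbc3, and exon 4 for Bak1 and Bid.
Bcl2, chr1:106712575-106712610, minus strand: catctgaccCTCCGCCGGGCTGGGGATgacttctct
Bcl2l1, chr2:152829697-152829732, minus strand: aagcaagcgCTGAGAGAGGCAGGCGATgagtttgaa
Mcl1, chr3:95659427-95659462, plus strand: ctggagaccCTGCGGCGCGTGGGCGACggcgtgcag
Bax, chr7:45465997-45466032, minus strand: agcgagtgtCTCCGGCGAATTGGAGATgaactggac
Bak1, chr17:27022531-27022566, minus strand: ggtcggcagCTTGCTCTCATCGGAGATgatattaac
Bcl2l11, chr2:128147141-128147176, plus strand: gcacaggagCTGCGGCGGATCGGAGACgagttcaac
Bid, chr6:120897289-120897324, minus strand: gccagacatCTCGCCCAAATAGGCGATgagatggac
Bad, chr19:6950783-6950818, plus strand: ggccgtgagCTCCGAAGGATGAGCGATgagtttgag
Bbc3, chr7:16313764-16313799, plus strand: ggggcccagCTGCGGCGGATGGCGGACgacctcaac
The cores were found by a search that required leucine first, aspartate last and glycine, alanine or serine before the last. The shared ends of the 9 cores were therefore fixed by the search. Among the residues allowed before the last, glycine is coded in 7 of the 9 genes, survival and death genes alike. Only Bad (serine) and Bbc3 (alanine) differ there.

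Expression is given as FPKM, fragments scaled to transcript length and to the mapped fragments of the library, so that it allows levels of different genes to be set side by side. Nrp1, the gene behind the sort, averaged 21.5 ± 0.709 FPKM in the Nrp-1+ libraries against 4.95 ± 0.262 FPKM in the Nrp-1- libraries (SD, n = 4 each). The T cell markers Cd3e and Cd4 averaged 222 and 315 FPKM in Nrp-1+ iTreg and 235 and 325 FPKM in Nrp-1- iTreg, and neither was called, that is, passed the test described below. Foxp3, at 116 ± 3.72 FPKM and 109 ± 1.20 FPKM, and Il2ra, the IL-2 receptor alpha chain, at 266 ± 4.96 FPKM and 228 ± 3.58 FPKM, were both called higher in Nrp-1+ iTreg (adjusted p = 0.0245 and 0.000108, limma). Of 18 markers of B, myeloid, CD8 T, NK and erythroid cells, 15 were in the table and 11 of these averaged under 1 FPKM, with Ms4a1 at 0 in every library and none of the 11 above 0.867 FPKM in any. Summed marker levels in Nrp-1+ and Nrp-1- iTreg ran from 5.21 to 5.91 and 4.01 to 5.80 FPKM for B cells (almost all Cd79b, which was not called), from 6.46 to 7.17 and 5.38 to 6.19 FPKM for myeloid cells (mostly Itgam, which was called higher), from 7.10 to 8.78 and 9.33 to 11.3 FPKM for CD8 T cells (almost all Cd8b1, which was called lower), and from 0.0318 to 0.0927 and 0 to 0.142 FPKM for NK cells. The single erythroid marker in the table, Hba-a1, ran from 5.48 to 7.53 and 2.01 to 3.25 FPKM and was called higher. The part of these markers in the results below was not tested. Relative sequencing depth, estimated from the steps between low FPKM values and set to 1 for Nrp-1+ replicate 1, ran from 0.992 to 1.22 in Nrp-1+ and from 0.807 to 1.23 in Nrp-1- iTreg. Short RNA genes took between 1.77% and 43.9% of a library's summed FPKM.

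All 10 members were expressed in every library, and their levels formed one order that spanned more than an order of magnitude. Mcl1 stood at the top with 233 ± 4.51 FPKM in Nrp-1+ and 266 ± 1.97 FPKM in Nrp-1- iTreg, followed by Bax, Bcl2, Bbc3 and Bak1. Below them, Bcl2l1 ranked above Bcl2l11 in Nrp-1+ iTreg and below it in Nrp-1- iTreg, and Bad, Pmaip1 and Bid closed the order in both. In neither group did the 4 libraries of a gene overlap in FPKM with those of its neighbour in the order. In bulk RNA, a lower level can mean fewer cells of a type or less RNA per cell, and these cannot be told apart.

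**Figure D1:**
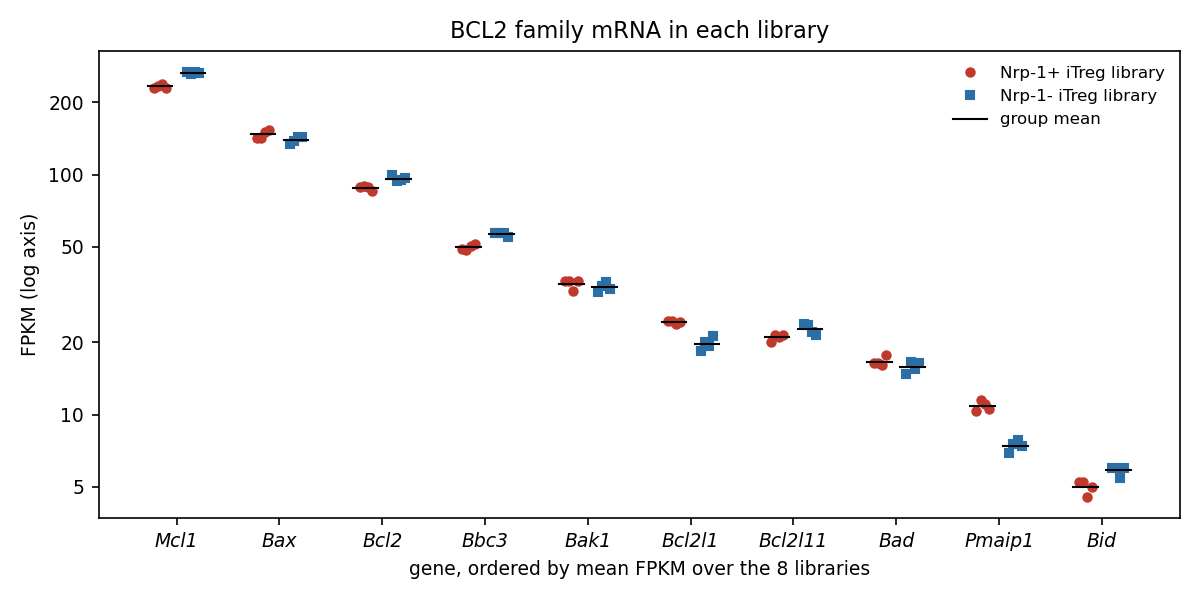
FPKM of the 10 genes in each library on a log axis, with 1 circle per Nrp-1+ iTreg library, 1 square per Nrp-1- iTreg library and a line at each group's mean. The order from Mcl1 to Bid is shared except that Bcl2l1 and Bcl2l11 change places, and the symbols of the groups separate for Mcl1, Bcl2, Bbc3, Bcl2l1, Pmaip1 and Bid.

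The groups were compared with limma on log2(FPKM + 1) over 10467 genes with a mean of at least 1 FPKM, and a gene was called at a Benjamini-Hochberg adjusted p under 0.05. The difference between the subsets was broad: 40.9% of all tested genes were called, 20.9% higher and 20.0% lower in Nrp-1+ iTreg (2189 and 2093 genes, or 1834 and 2747 once values were corrected for GC and transcript length). All 10 members were tested and 6 were called, 2 higher and 4 lower. With 10 genes that share of 60.0% is not a result about the family, and no test of it was made. The 6 called genes were also the 6 whose groups did not overlap, against 39.5% of all tested genes. The median log2 fold change was -0.03 for the members and -0.02 for all tested genes, and members lay on both sides of it. For each of the 6 the exact two-sided Mann-Whitney p was 0.0286, the smallest that 4 libraries against 4 can give.

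**Figure D2:**
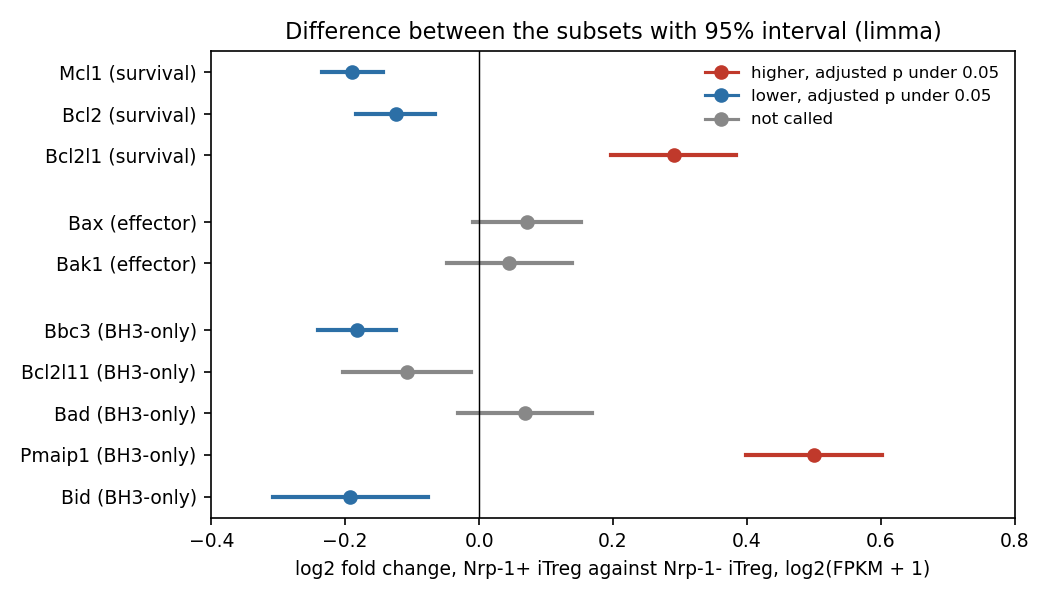
Log2 fold change of each member in Nrp-1+ against Nrp-1- iTreg on the log2(FPKM + 1) scale, as a point with its 95% interval from limma, grouped by role. Pmaip1 at 0.50 and Bcl2l1 at 0.29 lie right of 0, Bid, Mcl1, Bbc3 and Bcl2 lie left of it, and the 4 grey genes were not called.

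The 3 survival genes did not move together. Mcl1, whose short-lived protein holds back BAK and binds NOXA with preference, measured 229, 234, 239 and 229.9 FPKM in the Nrp-1+ libraries (replicates 1 to 4) and 268, 264, 268 and 265 FPKM in the Nrp-1- libraries. Every Nrp-1+ library lay below every Nrp-1- library, with no library between the groups. The difference was -0.19 on the log2 scale (SE 0.02, adjusted p = 0.000163, limma), and it missed the threshold under quantile normalization (-0.19, adjusted p = 0.0568).

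Bcl2, the founding member of the family and a binder of BIM, measured 88.9, 89.8, 88.4 and 85.7 FPKM in Nrp-1+ iTreg and 99.9, 93.9, 94.7 and 96.6 FPKM in Nrp-1- iTreg. The groups did not overlap, but this was the smallest of the 6 called differences, at -0.12 (SE 0.03, adjusted p = 0.00550, limma), and 86.2% of all called genes differed by more.

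Bcl2l1, which encodes BCL-XL and is known to be induced by T cell activation and CD28, went the other way. It measured 24.7, 24.6, 23.8 and 24.3 FPKM in Nrp-1+ iTreg against 18.4, 20.1, 19.3 and 21.2 FPKM in Nrp-1- iTreg. The Nrp-1+ libraries lay close together (SD 0.397 FPKM) and all above the more scattered Nrp-1- libraries (SD 1.19 FPKM). The log2 fold change was 0.29 (SE 0.04, adjusted p = 0.000766, limma), and 33.8% of called genes differed by more. With Mcl1 and Bcl2 as its abundant parts, the summed FPKM of the 3 survival genes was lower in Nrp-1+ iTreg, with 346 ± 5.20 FPKM against 382 ± 3.38 FPKM (SD, n = 4 each) and no overlap. Bcl2 mRNA was 3.62 ± 0.0764 times Bcl2l1 mRNA in the Nrp-1+ libraries, and in the Nrp-1- libraries 4.89 ± 0.385 times, again without overlap.

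Neither effector passed the test. Bax, the effector that waits in the cytosol and moves to mitochondria, measured 142.5, 141, 151 and 154 FPKM in Nrp-1+ iTreg and 135, 139, 143 and 143 FPKM in Nrp-1- iTreg. The groups overlapped, with 2 Nrp-1+ libraries above all Nrp-1- libraries. The log2 fold change was 0.07, with a 95% interval from -0.01 to 0.15 (adjusted p = 0.140, limma).

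Bak1, the effector that resides in the outer mitochondrial membrane, lay between 32.6 and 36.1 FPKM in Nrp-1+ iTreg and between 32.5 and 35.5 FPKM in Nrp-1- iTreg, ranges that almost coincide. Its log2 fold change of 0.04 had a 95% interval from -0.05 to 0.14 (adjusted p = 0.407, limma). Bax mRNA was 4.20 ± 0.327 times Bak1 mRNA in Nrp-1+ and 4.12 ± 0.120 times in Nrp-1- iTreg, with overlap between the groups.

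Of the 5 BH3-only genes, 1 was higher, 2 were lower and 2 were not called, beside 20.9% higher and 20.0% lower among all tested genes. Pmaip1, which encodes NOXA, a partner of MCL1 that promotes its degradation, had the largest difference of the 10 members. It measured 10.3, 11.5, 11.1 and 10.6 FPKM in Nrp-1+ iTreg and 6.92, 7.53, 7.81 and 7.37 FPKM in Nrp-1- iTreg. The lowest Nrp-1+ library lay well above the highest Nrp-1- library. The log2 fold change was 0.50 (SE 0.04, adjusted p = 5.72e-05, limma), and 13.8% of called genes differed by more.

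Bbc3 encodes PUMA, a BH3-only protein induced by p53 and by FOXO factors that binds all survival members, and it was the most abundant BH3-only transcript. It measured 48.9, 48.5, 50.5 and 51.2 FPKM in Nrp-1+ iTreg and 57.0, 57.2, 57.2 and 54.9 FPKM in Nrp-1- iTreg, without overlap. The log2 fold change was -0.18 (SE 0.03, adjusted p = 0.000741, limma), opposite in sign to that of Pmaip1. Bbc3 mRNA was 4.58 ± 0.267 times Pmaip1 mRNA in the Nrp-1+ libraries, and in the Nrp-1- libraries 7.65 ± 0.402 times.

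Bid, whose protein is cleaved by caspase-8 and carries death receptor signals to mitochondria, was the least abundant member. It measured 5.25, 5.23, 4.55 and 4.99 FPKM in Nrp-1+ iTreg and 5.98, 6.00, 5.45 and 6.01 FPKM in Nrp-1- iTreg. The groups were separate, though Nrp-1+ replicate 1 and Nrp-1- replicate 3 lay close to each other. The log2 fold change was -0.19 (SE 0.05, adjusted p = 0.0163, limma).

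Bcl2l11 encodes BIM, the BH3-only protein that removes autoreactive T cells and T cells deprived of cytokine. It measured 20.0, 21.5, 21.0 and 21.5 FPKM in Nrp-1+ iTreg and 23.9, 23.6, 22.0 and 21.4 FPKM in Nrp-1- iTreg, where replicate 4 lay within the Nrp-1+ range. The log2 fold change was -0.11, with a 95% interval from -0.20 to -0.01 before adjustment and an adjusted p of 0.0721 (limma). Without Nrp-1- replicate 4 the gene was called, at -0.13 (adjusted p = 0.0359, limma).

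Bad, a BH3-only protein held inactive when growth factor kinases phosphorylate it, lay between 16.1 and 17.7 FPKM in Nrp-1+ iTreg and between 14.8 and 16.5 FPKM in Nrp-1- iTreg, with overlap. Its log2 fold change was 0.07, with a 95% interval from -0.03 to 0.17 (adjusted p = 0.242, limma). The 5 BH3-only transcripts summed to 103 ± 2.15 FPKM and 108 ± 1.95 FPKM, and the highest Nrp-1+ sum and the lowest Nrp-1- sum both rounded to 106 FPKM.

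Set against each other within a library, survival and effector mRNAs stood in a different ratio in the subsets. The ratio of their summed FPKM was 1.92, 1.97, 1.91 and 1.79 in the Nrp-1+ libraries, with a mean of 1.90 ± 0.07, and ran from 2.13 to 2.31 in the Nrp-1- libraries, with a mean of 2.20 ± 0.08 (SD, n = 4 each). No library of one group reached the other. The survival genes held 54.8% ± 0.864 of the members' summed FPKM in Nrp-1+ and 57.5% ± 0.591 in Nrp-1- iTreg, the effectors 28.9% ± 0.680 and 26.2% ± 0.676, and the BH3-only genes 16.4% ± 0.233 and 16.3% ± 0.350. These ratios combine the values above and were given no test.

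Single pairs did not all follow that sum. Mcl1 to Pmaip1, a survival gene and its BH3-only partner, ran from 20.4 to 22.2 in the Nrp-1+ libraries and from 34.3 to 38.7 in the Nrp-1- libraries, the largest relative difference of the 14 pairs computed (ratio of the group means 0.596). Bcl2 to Bax was 0.601 ± 0.0353 and 0.689 ± 0.0368, whereas Bcl2l1 to Bax was 0.166 ± 0.00908 and 0.141 ± 0.00637, so the direction depended on which survival gene was taken. Mcl1 to Bbc3 was 4.69 ± 0.146 and 4.70 ± 0.0898, and Bcl2 to Bcl2l11 was 4.20 ± 0.192 and 4.24 ± 0.222, both with overlapping libraries.

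**Figure D3:**
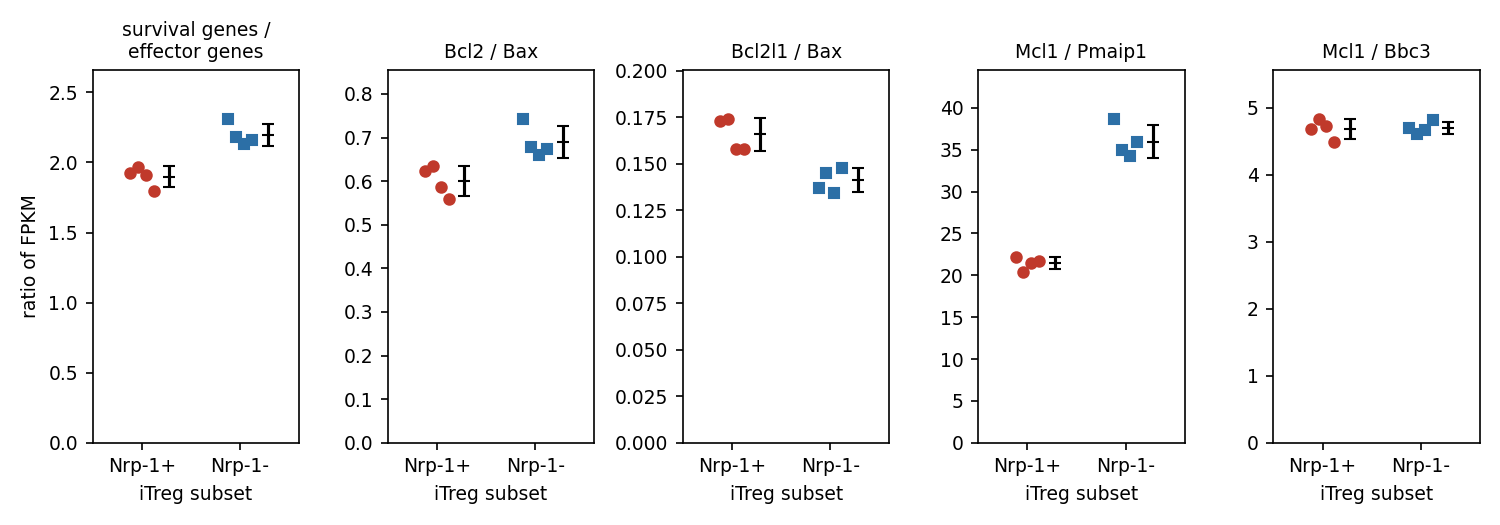
Ratios of FPKM in each library of the sorted iTreg, with circles for Nrp-1+ and squares for Nrp-1- libraries and, beside them, the mean with SD. Mcl1 to Pmaip1 averages 21.4 and 36.0, Bcl2l1 to Bax is the only ratio drawn that is higher in Nrp-1+ iTreg without overlap, and Mcl1 to Bbc3 overlaps.

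The other genes of the family were mostly low. Of 13 listed, Bcl2a1a, Bcl2l10 and Hrk were listed at 0 in all libraries and 7 passed the filter. Bik, a BH3-only gene, was higher, at 3.76 ± 0.606 FPKM against 2.18 ± 0.242 FPKM (log2 fold change 0.58, adjusted p = 0.00184, limma), and 0 were lower, also at an unadjusted p under 0.05. The 2 genes called were 28.6% of those tested, below the share of all genes. Bcl2l13 was called at 0.12 (adjusted p = 0.0496, limma) but lost the call in 13 of 17 alternative settings. The Bcl2a1 genes are near-identical copies whose reads may have been split between them, so their levels are uncertain.

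Downstream of the mitochondrion, 11 of the 14 tested genes for the apoptosome, caspases and inhibitor of apoptosis proteins (IAPs) were called, 8 higher and 3 lower in Nrp-1+ iTreg. That is 78.6%, beside 40.9% of all tested genes, and 9 to 11 were called over the 17 alternatives, with 9 under quantile normalization and under the GC and length correction. The median log2 fold change of these 14 was 0.15, and that of all tested genes -0.02. Birc5 (survivin), an IAP that is also needed for chromosome segregation in mitosis, was at 265 ± 4.91 FPKM against 145 ± 7.63 FPKM (log2 fold change 0.86, adjusted p = 9.89e-07, limma). Casp6, an executioner caspase, was lower (-0.22), at 25.1 ± 1.16 FPKM against 29.3 ± 1.05 FPKM. Htra2, a mitochondrial protease that relieves caspase inhibition, was higher (0.38). The IAP genes Birc3 (-0.26) and Birc2 (-0.13), known for their role in NF-κB signalling, were lower. These 5 calls held in all 17 alternatives, while the calls of Aifm1 and Xiap, named here after their values were seen, were lost in 11 and 10 of them.

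In the death receptor list, 2 of 9 tested genes were higher by limma and 0 lower, and at an unadjusted p under 0.05 these counts were 3 and 0. The share called, 22.2%, was below the 40.9% of all tested genes, and the share higher was close to the 20.9% of all tested genes. Fadd, the adaptor that recruits caspase-8, was at 8.34 ± 0.422 FPKM against 6.25 ± 0.0641 FPKM (log2 fold change 0.36, adjusted p = 0.00013, limma), and the call of Tradd (0.12) was lost in 7 of 17 alternatives. Of the 3 VDAC channel genes of the outer mitochondrial membrane, Vdac3 (0.17) and Vdac1 (0.10) were higher, the first losing its call under quantile normalization and the second in 8 of 17 alternatives. None of 4 tested genes that ubiquitinate or deubiquitinate MCL1 was called by limma. Huwe1, a ubiquitin ligase gene named here after its values were seen, was lower at an unadjusted p under 0.05 (log2 fold change -0.10, adjusted p = 0.0827, limma), and it was called under quantile normalization, the setting in which Mcl1 missed the threshold.

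Among 5 kinases known to phosphorylate BAD, Akt1 was higher (0.18, adjusted p = 0.000561, limma) and Pim2, a kinase that promotes T cell survival, was lower, at 39.1 ± 1.57 FPKM against 52.6 ± 1.05 FPKM (log2 fold change -0.42, adjusted p = 2.17e-05, limma). Of 6 transcription factors known to act on members, 3 were lower: Ddit3 (CHOP), a stress factor, at -0.28, Foxo1, which drives Bcl2l11 and Bbc3 when growth factor signals fade, at -0.10, and Stat5b, which carries the IL-2 signal, at -0.08. Among all tested genes 20.0% were lower, and no test of this list was made. Foxo1 and Stat5b lost the call without Nrp-1+ replicate 1 and with a replicate block, and Stat5b also without Nrp-1+ replicate 2 and under quantile normalization, with adjusted p (limma) up to 0.0689 for Foxo1 and 0.0757 for Stat5b. Across these 7 lists 22 of 48 tested genes were called, 15 higher and 7 lower, or 10 and 8 after the GC and length correction. Their share called, 45.8%, lay near the 40.9% of all tested genes.

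**Figure D4:**
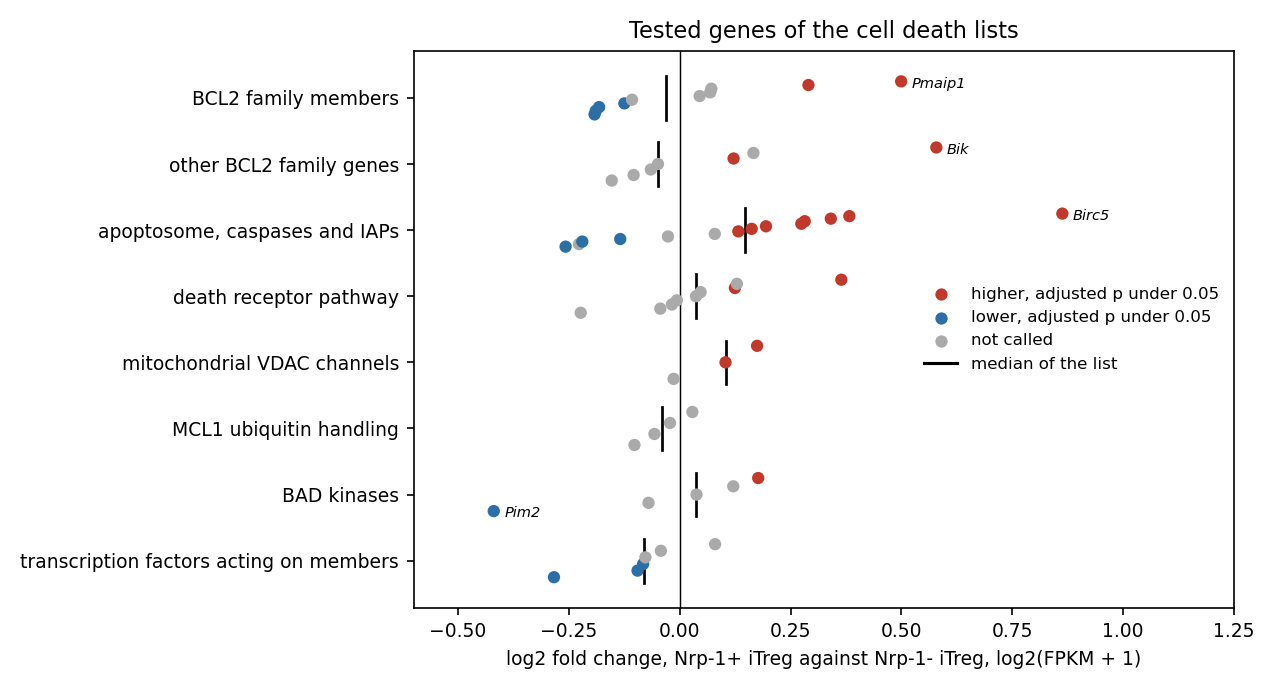
Log2 fold change in Nrp-1+ against Nrp-1- iTreg of every tested gene in the 10-member set and in the 7 further lists, 1 point per gene, coloured by call, with a line at each list's median. Birc5 at 0.86, Bik at 0.58, Pmaip1 at 0.50 and Pim2 at -0.42 lie farthest from 0, and the apoptosome list holds 8 of the 15 higher calls outside the members.

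The promoters of the members were searched for the letters bound by the FOXO, STAT and p53 factors of the transcription factor list. Letters bound by Ddit3 were not searched. RefSeq promoters (build GRCm38.p6, 250 bases before to 50 after each start) were available for 15 starts of 9 members, and both strands were read. The FOXO letters GTAAACA were found in 2 of the 15, against 3.65% of 32851 promoters of all genes, and the STAT letters TTCNNNGAA in none of the 15, against 8.30%. The p53 half-site was found in 1, against 8.36%. The stretches are shown because they belong to the 2 BH3-only genes known as FOXO targets and to Bax, known as a p53 target, with the match in capitals.
Bcl2l11, FOXO letters, chr2:128125791-128125837, plus strand: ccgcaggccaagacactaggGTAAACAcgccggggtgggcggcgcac
Bbc3, FOXO letters on the other strand, chr7:16310074-16310120, plus strand: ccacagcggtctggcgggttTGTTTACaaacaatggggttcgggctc
Bax, p53 half-site, chr7:45467070-45467119, minus strand: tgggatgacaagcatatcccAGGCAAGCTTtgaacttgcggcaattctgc
Counted from the start site, the matches began at positions -227, -167 and -201, and none overlapped another motif. They are a description of letters, and no binding was measured here.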

How the data were processed

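The authors sequenced RNA of 4 libraries from each iTreg subset. The deposited values are FPKM, 1 for every gene symbol in each library, which the authors computed with Cufflinks after read processing in the CLC Genomics Workbench. The submitters' processing notes name the builds GRCm38 and mm10, and the annotation is not given in the sources used here. The labels and the methods name different library kits, of which the methods' is directional with polyA selection. Since FPKM does not count fragments, neither a count model nor a counting interval was used, and fragment totals are unknown apart from relative depth. Summed FPKM ran from 693961 to 1217750 per library. Within a group, no 2 libraries shared more than 1 identical value above 0.

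FPKM values were tested as deposited, on log2(FPKM + 1), with limma 3.58.1 (lmFit, eBayes with trend) in R 4.3.3 and Benjamini-Hochberg adjustment over the 10467 genes that averaged at least 1 FPKM. The added 1 makes fold changes of low genes look smaller than they are. Exact Mann-Whitney tests used scipy 1.17.1 in Python 3.11.15, and plots matplotlib 3.10.9. The fit was also run on simulated data with independent normal values and few genes changed. That setting is simpler than these data, so it gives no error rate for them. The members and gene lists were chosen with earlier results of these data known. All members are named, and of the other lists up to 4 called genes per direction by size, except that some list genes are not reported here by name. Alternatives were another pseudocount (0.1), filter (none, or a mean of 5), size factors, quantile normalization, no trend, the replicate number as a block and each library left out. A GC and length correction, without and with the block, was added after the data were examined. BH3 stretches came from GENCODE M21 transcripts and promoters from RefSeq. nTreg libraries were not analysed here.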

Additional observations from a re-analysis of the deposited data

Results flagged for a closer look

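In 32 genes, both groups were searched for a library far from the other 3. These genes were the 10 members and the 22 called genes of the other lists. Of 64 groups, 7 held one, where independent groups would give about 1 in 20, or 3.2, by chance. Genes measured in the same libraries are not independent, and a call depends on the spread within groups, so 3.2 is only a rough guide. Among the members, Bak1 was at 32.6 FPKM in Nrp-1+ replicate 3 (the others from 35.9 to 36.1), Bid at 5.45 FPKM in Nrp-1- replicate 3 (5.98 to 6.01), Bad at 17.7 FPKM in Nrp-1+ replicate 4 (16.1 to 16.4) and Bbc3 at 54.9 FPKM in Nrp-1- replicate 4 (57.0 to 57.2). For Bid and Bbc3 the far library was the one nearest to Nrp-1+ iTreg, and the groups stayed apart with it. Among the other genes, Bik was at 4.67 FPKM in Nrp-1+ replicate 1 (3.40 to 3.51), Diablo at 17.2 FPKM in Nrp-1- replicate 3 (18.8 to 18.9) and Ddit3 at 30.0 FPKM in Nrp-1+ replicate 2 (35.1 to 36.1).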

How the results depend on the processing

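Over 17 alternatives no member changed sign, 2 members were called higher in every one and 4 or 5 lower. The calls of Bcl2, Bcl2l1, Bid, Bbc3 and Pmaip1 held throughout, with adjusted p (limma) up to 0.0414, 0.0345, 0.0440, 0.0221 and 0.00129, and Mcl1 missed the threshold only under quantile normalization. Bcl2l11 was called under quantile normalization (-0.13, adjusted p = 0.0246), with the GC and length correction (-0.14, adjusted p = 0.0395, but 0.0875 when the replicate block was added) and without Nrp-1- replicate 4. The cause was not tested. With libraries left out in turn, log2 fold changes ran from 0.47 to 0.52 for Pmaip1, from 0.26 to 0.32 for Bcl2l1, from -0.20 to -0.18 for Mcl1 and from -0.22 to -0.15 for Bid, and calls among all genes from 3742 to 3977. The GC and length correction changed the split of all calls from 2189 higher and 2093 lower to 1834 and 2747.

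In deviations from the group means, same-numbered libraries correlated between -0.54 and 0.01, and no Nrp-1+ library correlated best with its own number. Short RNA genes took 3.19% and 43.9% of summed FPKM in Nrp-1+ and Nrp-1- replicate 1, and 38.9% and 4.45% in replicate 4. Library differences of this kind can enter the deviations, so the check cannot tell whether same-numbered libraries shared a culture. With the replicate block, 1931 genes were higher and 1675 lower, and all 6 member calls held, with adjusted p from 0.000555 for Pmaip1 to 0.0250 for Bcl2. FPKM carry no fragment numbers, so counting error could not be separated from replicate spread.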

Other observations

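Members of the family under the filter were close to the bottom of the scale: Bok averaged 0.036 FPKM in Nrp-1+ and 0.00802 FPKM in Nrp-1- iTreg, Bcl2l14 averaged 0.254 and 0.407 FPKM, and Bcl2l15 averaged 0.282 and 0.198 FPKM. They were chosen for mention after their values were seen, and their groups overlapped (exact two-sided Mann-Whitney p = 0.114 for Bcl2l14 and 0.2 for Bcl2l15, with none computed for Bok). Of the Bcl2a1 copies, Bcl2a1b averaged 18.1 ± 2.85 and 18.8 ± 2.62 FPKM (SD, n = 4 each) and Bcl2a1d 1.97 ± 0.201 and 2.12 ± 0.358 FPKM, with overlap in both, and how reads were divided between the copies is not given in the sources used here.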
